A study of Mus musculus with 6 samples.

Results

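The PARP family with Dtx3l was followed as 10 genes, taken by their symbols from the gene table of the series: Parp1, Parp2, Parp3, Parp8, Parp9, Parp10, Parp11, Parp12, Parp14 and Dtx3l. The table lists 37576 genes, of which 16511 had enough reads to be tested, and all 10 members were among these. PARP enzymes use NAD to attach ADP-ribose to proteins or nucleic acids. A few, led by PARP1, build long chains at DNA breaks, which recruit repair proteins. Most other members transfer single units, and several of those are known as interferon-stimulated genes that act against viruses in infected cells. DTX3L is a ubiquitin ligase of the Deltex family that works as a complex with PARP9. Parp9, Dtx3l, Parp14, Parp10, Parp11 and Parp12 are called interferon-linked here, Parp1, Parp2 and Parp3 are called DNA repair members, and Parp8 is placed in neither class.

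RNA came from whole livers, dispersed to single cells, of mouse embryos of the strain C57BL/6 taken at embryonic day 12.5. The E861A group held 3 livers of the genotype Adar1E861A/E861A, numbered 6, 16 and 19, all male. The wild type group held 3 livers of wild type genotype, numbered 2 (male), 15 and 17 (both female), so sex was partly tied to genotype. ADAR1 deaminates adenosines within RNA duplexes to inosine, and the E861A change in its catalytic domain removes that activity, while the protein is still made. The mutation is in every cell of the embryo, and the labels name no litter. The p-values of the gene fits therefore set the difference between genotypes against the spread between livers of a genotype. Family relations among these 6 livers are not known.

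Reads counted in genes ranged from 35280460 to 43733715 per library. The share of edited reads over 3883 tested sites was 1.47% to 1.87% in E861A libraries, against 4.43% to 6.01% in wild type libraries. Adar transcripts were at 275, 344 and 334 CPM (reads counted in the gene per 1e6 reads, scaled by TMM) in E861A livers, against 56.7, 79.0 and 57.3 CPM in wild type livers, a level that does not itself check a point mutation. Markers of hepatoblasts and of red cell precursors, the main cells of a liver of this age, were detected in every library. RNA of all cell types was sequenced together, so fewer cells of a type and less RNA per cell cannot be told apart.

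All 6 interferon-linked members rose in E861A livers, by 4.79-fold for Parp11 to 41.5-fold for Parp12. The DNA repair members did not move together: Parp3 rose 12.4-fold, Parp1 fell to 0.599 of its wild type level, and Parp2 did not pass the test. In edgeR's quasi-likelihood test, adjusted over all tested genes, 8 of 10 members were higher and 1 was lower, where 7.77% of all genes were higher and 4.26% lower. More than 4-fold higher were 7 members, beside 2.78% of all genes. The CPM of the genotypes did not overlap for 8 members that were higher, beside 19.4% of all genes, and for 1 that was lower, beside 14.5%. The median log2 fold change was 4.01 over the interferon-linked members and -0.05 over the DNA repair members, beside 0.04 over all tested genes. The DNA repair median is the value of Parp2. The classes were set with earlier results of these data known, so the medians do not test them.

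**Figure D1:**
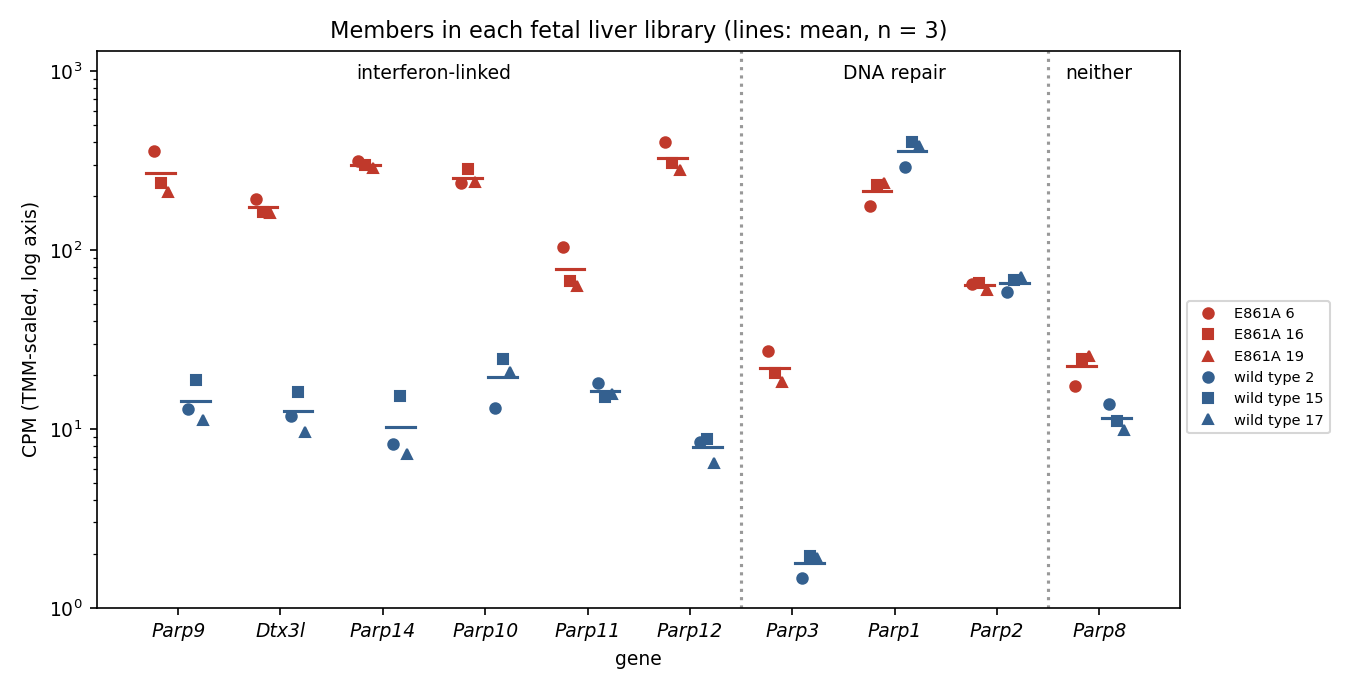
Level of each member in each library, in TMM-scaled CPM on a log axis, with E861A (red) left of wild type (blue) and a line at the mean of 3 libraries. The genotypes stand apart for 9 members and overlap for Parp2.

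Parp9 and Dtx3l, the partners of one complex, rose strongly together. Parp9 protein carries macrodomains, which bind ADP-ribose, and Dtx3l supplies the ubiquitin ligase activity. Parp9 (ENSMUSG00000022906) had 357, 236 and 212 CPM in E861A 6, 16 and 19, against 13.0, 18.7 and 11.1 CPM in wild type 2, 15 and 17. E861A 6 was the highest of the mutant livers, wild type 15 was the highest of the wild type livers, and the genotypes lay far apart. This was a log2 fold change of 4.23 (SE 0.30, edgeR adjusted p = 0.000101). Dtx3l (ENSMUSG00000049502) had 194, 164 and 162 CPM in E861A 6, 16 and 19, against 11.9, 16.1 and 9.59 CPM in wild type 2, 15 and 17. The same livers were highest in each genotype, and no mutant liver came near the wild type range. Its log2 fold change was 3.79 (SE 0.22, edgeR adjusted p = 4.11e-05).

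Within a library, Parp9 reads outnumbered Dtx3l reads more in E861A than in wild type livers. The ratio of Parp9 to Dtx3l reads was 1.84, 1.44 and 1.31 in E861A 6, 16 and 19, against 1.09, 1.17 and 1.16 in wild type 2, 15 and 17. Each mutant liver was above each wild type liver, and E861A 6 stood furthest out. The log2 ratio was 0.60 ± 0.26 in E861A and 0.19 ± 0.05 in wild type (SD, n = 3 each), a difference of 0.41. A two-sided exact permutation test gave p = 0.10, the smallest value that 3 livers against 3 can give, so this test cannot pass 0.05 here.

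Parp14, a large protein with several macrodomains that transfers single ADP-ribose units, lies beside that pair and rose as well. Parp14 (ENSMUSG00000034422) had 315, 298 and 287 CPM in E861A 6, 16 and 19, against 8.23, 15.3 and 7.26 CPM in wild type 2, 15 and 17. The mutant livers were nearly level, within 1.096-fold of each other, while wild type 15 had the highest wild type value and the wild type livers spanned 2.102-fold. Parp14 had a log2 fold change of 4.87 (SE 0.31, edgeR adjusted p = 6.70e-05).

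These 3 genes form a cluster on chromosome 16, given here in NCBIM37 with GENCODE M1 annotation. Parp14 spans chr16:35832960-35871630 on the minus strand, Dtx3l spans chr16:35926597-35939237 on the minus strand, and Parp9 spans chr16:35938556-35972691 on the plus strand. Dtx3l and Parp9 are head to head and share 682 bases at their 5′ ends. Whether counting used strand is not stated, so reads from that stretch cannot be assigned with certainty. Parp14 ends 54.967 kb from the near end of Dtx3l. Within 500 kb on each side of the middle of the Dtx3l and Parp9 overlap lie the centres of 44 genes. Of these, 21 were tested, 5 rose and 1 fell, where 7.77% of all tested genes were higher and 4.26% lower. The 2 that rose besides the members were Pdia5, a protein disulfide isomerase, with a log2 fold change of 0.66 (SE 0.17, edgeR adjusted p = 0.0402), and Fam162a at 0.60 (SE 0.16, edgeR adjusted p = 0.0444). Kpna1, an importin that carries proteins into the nucleus, fell, with a log2 fold change of -0.92 (SE 0.22, edgeR adjusted p = 0.0341), and lies beyond the end of Parp9. The calls of Pdia5 and Fam162a were each lost in 9 of 13 alternative fits, among them those without any library other than E861A 19. That of Kpna1 was lost in 6, among them those without E861A 16, E861A 19, wild type 15 or wild type 17. Those of the 3 members held in all 13.

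**Figure D2:**
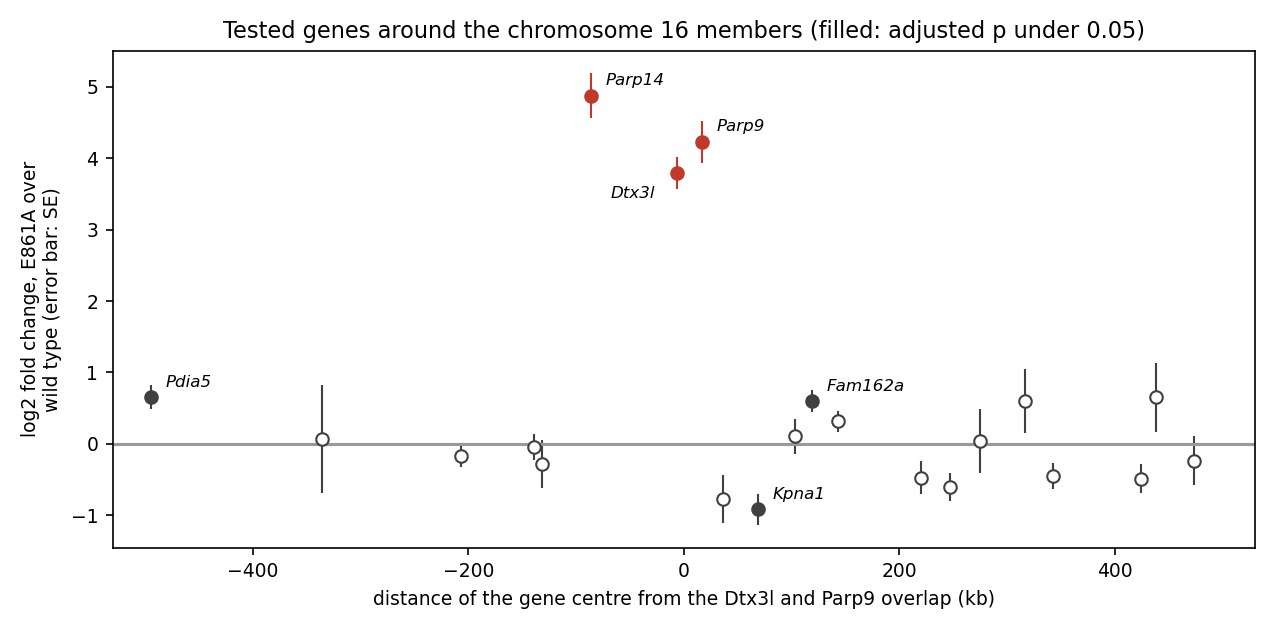
Log2 fold change of E861A over wild type, with SE, for the 21 tested genes around the chromosome 16 members, by distance of each gene's centre from the Dtx3l and Parp9 overlap. The 3 members, in red, lie between 3.79 and 4.87, and every other gene in the window lies between -1 and 1.

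Parp10, Parp11 and Parp12 lie elsewhere in the genome and also rose. Parp10, which transfers single ADP-ribose units and holds RNA recognition motifs, had 236, 284 and 239.9 CPM in E861A 6, 16 and 19, against 13.2, 24.5 and 20.9 CPM in wild type 2, 15 and 17. In contrast to the pair above, E861A 16 rather than E861A 6 was highest, and wild type 2 was the lowest liver. Its log2 fold change was 3.70 (SE 0.25, edgeR adjusted p = 8.49e-05). Parp10 (ENSMUSG00000063268, chr15:76061604-76073871, minus strand) shares 1401 bases with Plec on the same strand, and Plec itself had a log2 fold change of 0.65 that did not pass the test (edgeR adjusted p = 0.167).

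Parp11, a single-unit transferase linked to the nuclear envelope and to turnover of the type I interferon receptor, had the smallest rise of the interferon-linked members. Parp11 (ENSMUSG00000037997, chr6:127396858-127444259, plus strand) had 104, 67.0 and 63.2 CPM in E861A 6, 16 and 19, against 18.1, 15.2 and 15.7 CPM in wild type 2, 15 and 17. E861A 6 was well above the other mutant livers, and the wild type livers were close together. Its log2 fold change was 2.26 (SE 0.22, edgeR adjusted p = 0.000589). With the 4 male libraries alone, 3 E861A and 1 wild type whose spread is taken to be that of the others, it was 2.12 and no longer passed (edgeR adjusted p = 0.0615).

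Parp12, a CCCH zinc-finger protein known to restrict several RNA viruses, had the largest rise of the 10 members. Parp12 (ENSMUSG00000038507, chr6:39036409-39068348, minus strand) had 399.7, 306 and 279 CPM in E861A 6, 16 and 19, against 8.44, 8.84 and 6.43 CPM in wild type 2, 15 and 17. E861A 6 was again highest, and all mutant livers were above all wild type livers. Its log2 fold change was 5.37 (SE 0.23, edgeR adjusted p = 9.64e-06), which ranked 24 by p among the tested genes. The 95% interval of the fold ran from 28.6 to 60.3.

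Among the DNA repair members, Parp3 rose 12.4-fold, beside 13.8-fold for Dtx3l and 13.0-fold for Parp10, differences between genes that were not tested. PARP3 acts with PARP1 at double-strand breaks and favours repair by end joining. Parp3 (ENSMUSG00000023249, chr9:106372653-106379280, minus strand) had 27.3, 20.6 and 18.2 CPM in E861A 6, 16 and 19, against 1.47, 1.96 and 1.91 CPM in wild type 2, 15 and 17. E861A 6 was highest, as for Parp9 and Parp12, and the wild type livers were close to each other. The log2 fold change was 3.63 (SE 0.24, edgeR adjusted p = 6.86e-05), and the call held in all 13 alternative fits. Parp3 shares 987 bases with Rrp9 on the opposite strand, and Rrp9 had a log2 fold change of 0.25 that did not pass the test (edgeR adjusted p = 0.447).

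Parp1, the main enzyme of chain building at DNA breaks, was lower in E861A livers. Parp1 (ENSMUSG00000026496, chr1:182499086-182531384, plus strand) had 177, 229.5 and 238 CPM in E861A 6, 16 and 19, against 292, 399.6 and 384 CPM in wild type 2, 15 and 17. The highest mutant liver was below the lowest wild type liver, and the lowest livers were E861A 6 and wild type 2. Parp1 had a log2 fold change of -0.74 (SE 0.19, edgeR adjusted p = 0.0416). With sex as a covariate it was -0.44 (edgeR adjusted p = 0.312), with male libraries alone -0.43 (edgeR adjusted p = 0.532), and the call was also lost on leaving out E861A 6, E861A 16, wild type 15 or wild type 17 (edgeR adjusted p = 0.0766 to 0.187). Of 20 red cell precursor markers, 10 were lower in E861A, where 4.26% of all genes were lower. The 20 markers summed to 21925 to 23986 CPM in E861A, against 27480 to 66120 CPM in wild type. Of 20 cell cycle genes, 9 were lower, with sums of 5549 to 6294 CPM in E861A against 8498 to 12774 CPM in wild type. With sex as a covariate 0 of the red cell markers were called (6 at an unadjusted p under 0.05) and 1 of the cell cycle genes. On leaving out 1 library the counts ran from 3 to 16 and from 1 to 16, both lowest without E861A 16 or wild type 17 and, for the cell cycle genes, also without wild type 15, and both highest without wild type 2. Over all genes, 703 were lower with all libraries and 39 with sex as a covariate. That count was 150 without E861A 16, 197 without wild type 15, 95 without wild type 17 and 1502 without wild type 2. The part of the red cell and cell cycle lists in the Parp1 result was not tested.

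Parp2, which shares the break-sensing role of Parp1, showed no detectable difference. Parp2 (ENSMUSG00000036023, chr14:51427621-51440975, plus strand) had 64.6, 65.6 and 60.1 CPM in E861A 6, 16 and 19, against 58.0, 67.9 and 70.8 CPM in wild type 2, 15 and 17. The mutant values all fell inside the wild type range. The log2 fold change was -0.05 (SE 0.13, edgeR adjusted p = 0.873), with a 95% interval of -0.35 to 0.26. Parp2 was not called in any of the 13 alternative fits.

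Parp8, a single-unit transferase whose role is poorly known, rose 1.95-fold. Parp8 (ENSMUSG00000021725, chr13:117643631-117814323, minus strand) had 17.5, 24.5 and 25.7 CPM in E861A 6, 16 and 19, against 13.8, 11.1 and 9.90 CPM in wild type 2, 15 and 17. E861A 6, highest for Parp9 and Parp12, was the lowest mutant liver here, and it still lay above wild type 2. The log2 fold change was 0.96 (SE 0.21, edgeR adjusted p = 0.0233). The call was lost with sex as a covariate (0.71, edgeR adjusted p = 0.224) and with male libraries alone (0.72, edgeR adjusted p = 0.407). It was also lost without E861A 16, E861A 19, wild type 15 or wild type 17 (edgeR adjusted p = 0.0822 to 0.134).

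In male libraries alone Parp9, Dtx3l, Parp14, Parp10, Parp12 and Parp3 still differed, with log2 fold changes of 3.87 for Dtx3l to 5.29 for Parp12 (edgeR adjusted p = 0.00123 to 0.00789).

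**Figure D3:**
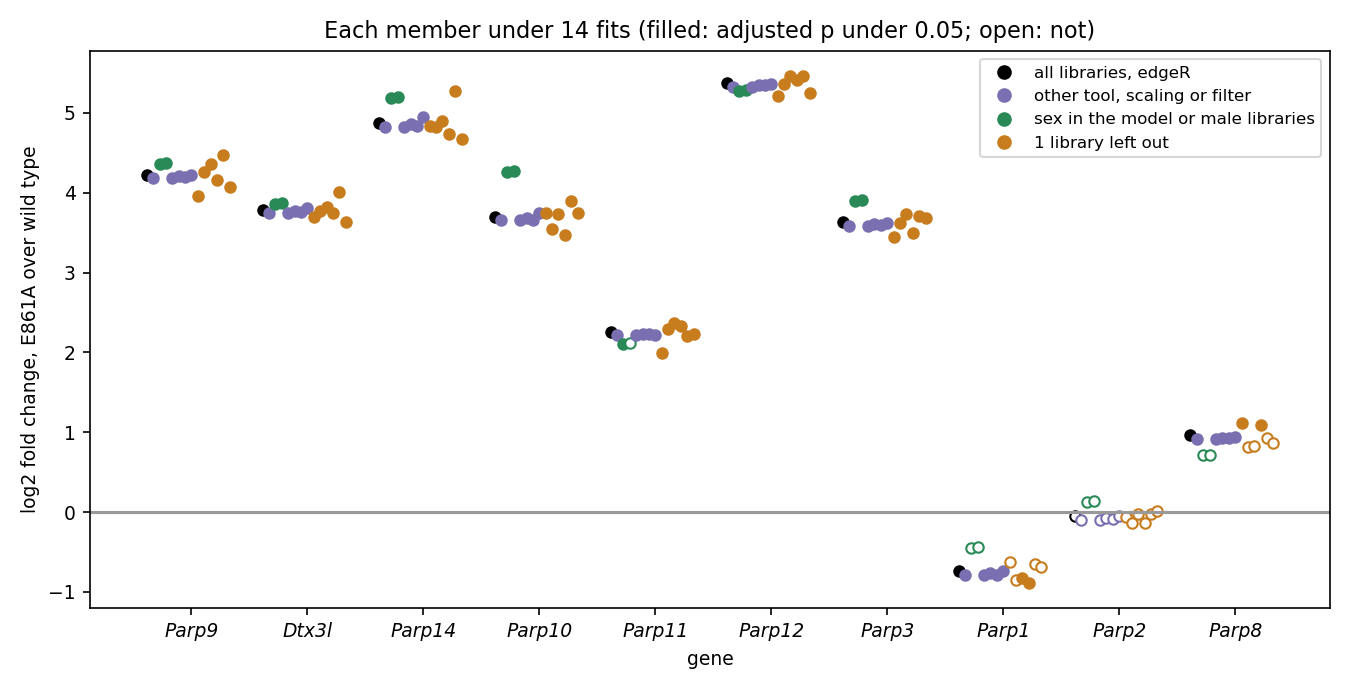
Log2 fold change of E861A over wild type for each member in the fit of all libraries and in 13 alternative fits, filled where the edgeR, DESeq2 or limma adjusted p was under 0.05. Parp9, Dtx3l, Parp14, Parp10, Parp12 and Parp3 are filled throughout, Parp11 has 1 open point, Parp1 and Parp8 have 6 each, and Parp2 is open throughout.

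The livers of one genotype did not vary in the same way for each member. E861A 6 lay above its genotype's mean on the log2 CPM scale by 0.45 for Parp9, 0.45 for Parp11, 0.33 for Parp3 and 0.30 for Parp12. It lay below that mean for Parp8 (-0.35), Parp1 (-0.27) and Parp10 (-0.10). Wild type 15 lay above its genotype's mean by 0.65 for Parp14 and 0.43 for Parp9, and below it for Parp11 (-0.10). The spread among wild type livers, where these genes are low, was thus wider for Parp14 than among E861A livers, and the reverse held for Parp11.

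The makeup of the 10 members by reads was inverted between the genotypes. The 7 other PARP genes, with sums of 589 to 695 CPM in E861A and 483 to 602 CPM in wild type, are outside these shares. Interferon-linked members held 84.8%, 79.9% and 78.4% of all member reads (as CPM) in E861A 6, 16 and 19, against 16.6%, 17% and 13.2% in wild type 2, 15 and 17. The DNA repair members held 14.2%, 18.6% and 19.9% in E861A 6, 16 and 19, against 80.2%, 81.1% and 84.9% in wild type 2, 15 and 17. The shares of the genotypes were far apart in both classes, and within a genotype the livers were close.

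Levels of different genes were compared as RPKM, which is CPM per kilobase of exon. In E861A livers Parp12 was highest, at 82.1 ± 15.9 RPKM (SD, n = 3 here and below). Parp10 at 59.2 ± 6.21, Parp1 at 55.9 ± 8.52 and Parp9 at 55 ± 15.95 RPKM followed, with ranges that overlap between neighbours. Below Parp9, and apart from it, stood Parp2 at 35.5 ± 1.64, Parp14 at 32.2 ± 1.49 and Dtx3l at 30.2 ± 3.10 RPKM, whose ranges overlapped from neighbour to neighbour. Parp11 at 13.7 ± 3.98 RPKM was apart from both sides, and Parp8 at 7.30 ± 1.44 and Parp3 at 5.95 ± 1.28 RPKM overlapped at the bottom.

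In wild type livers Parp1 led the 10 members at 93.2 ± 15.1 RPKM, followed by Parp2 at 36.7 ± 3.77 RPKM, each apart from the next gene. Every other member was below 5 RPKM on average. Parp10 at 4.57 ± 1.35, Parp8 at 3.75 ± 0.64, Parp9 at 2.93 ± 0.81 and Parp11 at 2.86 ± 0.27 RPKM overlapped from neighbour to neighbour. So did Dtx3l at 2.19 ± 0.58, Parp12 at 1.98 ± 0.32 and Parp14 at 1.101 ± 0.47 RPKM. Parp3, at 0.48 ± 0.07 RPKM, was lowest and apart from Parp14. Parp12 thus ranked first of 10 in E861A livers and 8 of 10 in wild type livers.

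**Figure D4:**
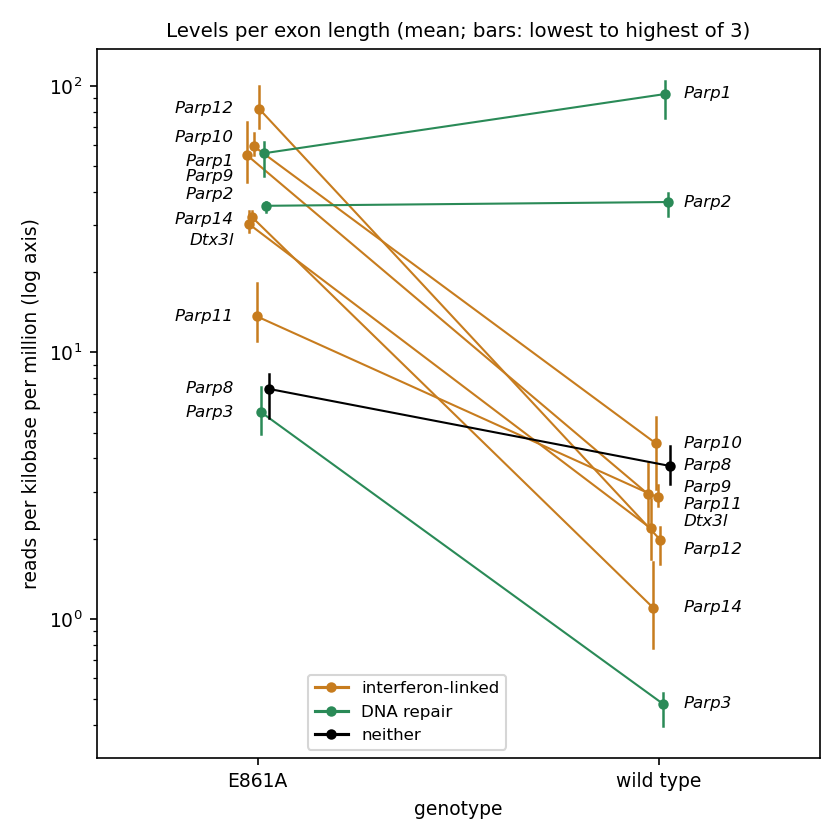
Mean level of each member per exon length in E861A (left) and wild type (right), in RPKM on a log axis, with bars from the lowest to the highest of 3 livers. Interferon-linked members and Parp3 slope steeply, Parp2 is almost level, and Parp1 is at 55.9 RPKM in E861A and 93.2 RPKM in wild type.

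Of the 7 other PARP genes tested, 2 rose and 1 fell, with log2 fold changes of all 7 between -0.78 and 0.96. Parp4, which is part of vault particles, averaged 17.3 ± 2.22 CPM in E861A and 8.86 ± 0.71 CPM in wild type livers (SD, n = 3 each), which is a log2 fold change of 0.96 (edgeR adjusted p = 0.0116). Tiparp, a target of the aryl hydrocarbon receptor, averaged 28.6 ± 1.51 CPM in E861A and 14.9 ± 3.50 CPM in wild type livers, a log2 fold change of 0.94 (edgeR adjusted p = 0.0180). Parp16, an enzyme of the endoplasmic reticulum membrane, averaged 8.79 ± 0.88 CPM in E861A and 15.1 ± 2.69 CPM in wild type livers, a log2 fold change of -0.78 (edgeR adjusted p = 0.0390). These 3 calls were lost with sex as a covariate and with male libraries alone. The Parp4 call was also lost without E861A 16, wild type 15 or wild type 17, and the Tiparp and Parp16 calls without any library other than wild type 2. Zc3hav1, the zinc-finger antiviral protein, had 250.5, 319 and 286 CPM in E861A 6, 16 and 19, against 122, 237 and 174 CPM in wild type 2, 15 and 17. Its log2 fold change of 0.68 did not pass (edgeR adjusted p = 0.114). With sex as a covariate the Zc3hav1 value was 1.22 (edgeR adjusted p = 0.0578), with male libraries alone 1.23, and without wild type 2 it was 0.46. Zc3hav1 was not called in any of the 13 alternative fits. Parp6, Tnks and Tnks2 did not pass either. Among the 4 other tested Deltex genes only Dtx3 passed, at 126 CPM in E861A and 63.4 CPM in wild type livers on average (log2 fold change 0.99, edgeR adjusted p = 0.0149), a call lost in the same alternative fits as that of Parp4.

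**Figure D5:**
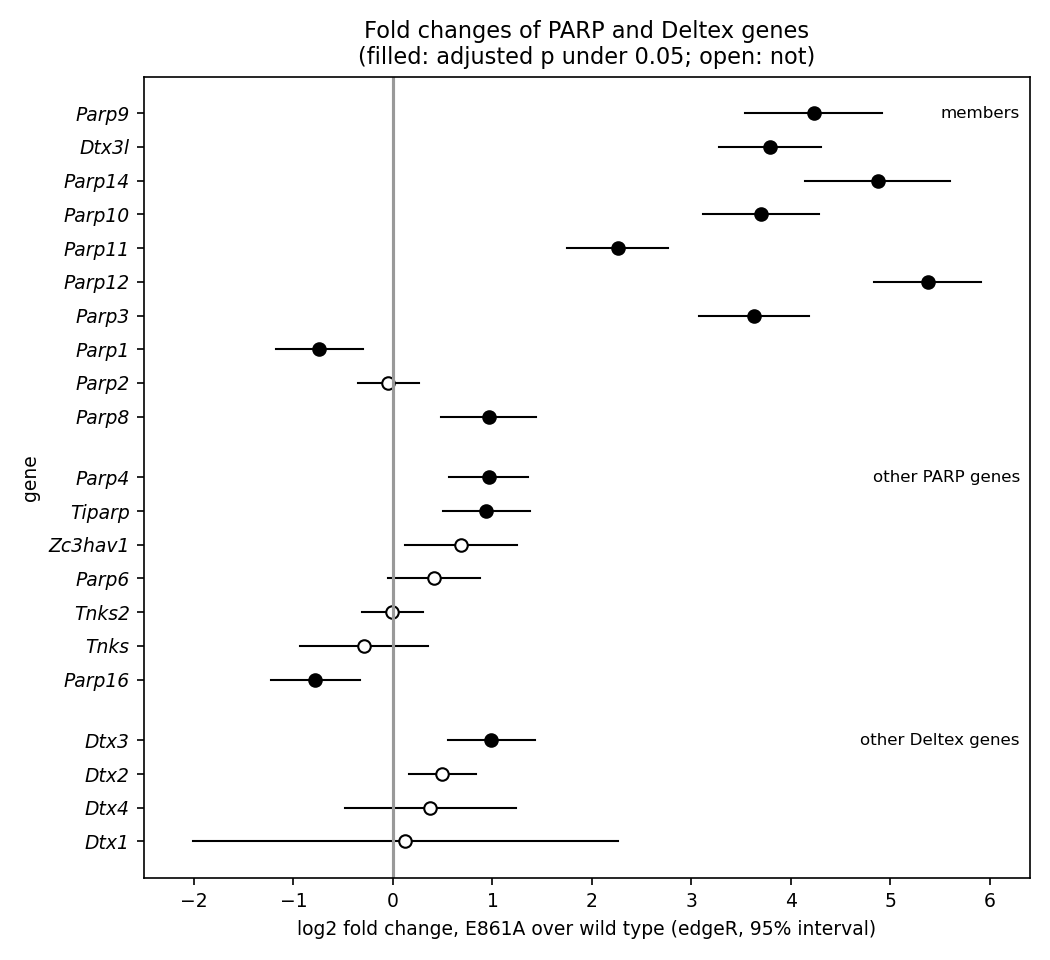
Log2 fold change of E861A over wild type with its 95% interval for the 10 members, 7 other PARP genes and 4 other Deltex genes, filled where the edgeR adjusted p was under 0.05. The 6 interferon-linked members and Parp3 lie above 2, and all other genes lie between -1 and 1.

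ADP-ribose is removed or bound by PARG, the ARH and macrodomain hydrolases and repair scaffolds. Of 12 such genes tested, edgeR called 0, with 2 at an unadjusted p under 0.05 (Macrod1 and Nudt9, both with lower values in E861A). DESeq2 called 1 of them lower, limma-voom 0, and edgeR 2 without wild type 2. Over all genes, 703 (4.26%) were lower in the main fit. That count was 1538 with DESeq2, 673 with limma-voom and 1502 without wild type 2. The median log2 fold change over these genes was -0.30, beside 0.04 over all tested genes. Of 14 genes of NAD supply and use, 2 rose, where 7.77% of all genes did. In this list 2 genes were lower with DESeq2 and with the filter of 1 CPM in 3 libraries, and 1 with RLE scaling, without E861A 6 or without wild type 2. Nampt, the rate-limiting enzyme of NAD salvage, averaged 194 CPM in E861A and 54.7 CPM in wild type livers (log2 fold change 1.82, edgeR adjusted p = 0.00149), a call lost only with male libraries alone. Nnmt, which methylates nicotinamide, passed at levels under 1 CPM (log2 fold change 1.88, edgeR adjusted p = 0.0318) and was lost in 8 of 12 alternative fits, among them those without any library other than wild type 2.

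Among genes that work with PARP1 at DNA breaks, the 3 that passed were lower in E861A, as were 4.26% of all genes. Of 15 genes of single-strand break and base excision repair, 1 fell: Lig1, the ligase of DNA replication and long-patch repair, with a log2 fold change of -0.77 (edgeR adjusted p = 0.0333). Of 15 genes of double-strand break repair, 2 fell. Brca2, which acts in homologous recombination, had a log2 fold change of -0.92 (edgeR adjusted p = 0.00294), and Prkdc, the kinase of end joining, had -0.62 (edgeR adjusted p = 0.0290). The median log2 fold change was -0.10 in the single-strand break list and -0.33 in the double-strand break list. The counts of lower genes in the single-strand and double-strand break lists were larger with DESeq2 and with the filter of 1 CPM in 3 libraries (3 and 5 in each) and without wild type 2 (4 and 6). Over all genes the count of lower genes was also larger in these fits, at 1538, 1160 and 1502, beside 703 in the main fit. The Lig1 and Prkdc calls were lost with sex in the model, and all 3 were lost with male libraries alone. The Lig1 call was also lost without any library other than wild type 2, and the Prkdc call without E861A 6, E861A 16, wild type 15 or wild type 17.

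Of 14 genes that carry the interferon signal to such targets, 6 rose, where 7.77% of all genes did. Irf7, a transcription factor that amplifies the response, averaged 729 CPM in E861A and 7.11 CPM in wild type livers, a log2 fold change of 6.68 (edgeR adjusted p = 5.82e-05). Stat2 averaged 330.3 CPM in E861A and 30.04 CPM in wild type livers, a log2 fold change of 3.46 (edgeR adjusted p = 1.75e-05). Irf1, a factor induced by interferons, had a log2 fold change of 2.96 (edgeR adjusted p = 4.76e-05). Irf9 rose as well, at 2.12, and so did Ifngr2, at 0.68, whose call was lost in 6 of 13 alternative fits, among them those without E861A 16, E861A 19, wild type 15 or wild type 17. The receptor genes Ifnar1 and Ifnar2 and the kinases Jak1, Jak2 and Tyk2 did not pass.

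Markers of other cells in the suspension were counted beside these results, where 7.77% of all genes were higher and 4.26% lower. Of 14 macrophage genes, Fcgr1 and Cd68 rose and Emr1 fell, and the summed level was 394 to 479.7 CPM in E861A against 393 to 472 CPM in wild type. Of 6 tested lymphoid genes, Lck rose and Rag1 fell, and the median log2 fold change was -0.36. Sums over the 9 listed lymphoid genes were 26.4 to 30.5 CPM in E861A against 9.89 to 14.3 CPM in wild type. Lck alone averaged 20.7 CPM in E861A and 5.16 CPM in wild type. Of 15 hepatoblast genes, Krt18, Fgb, Krt8, Hnf4a and Ahsg rose, with sums of 21490.2 to 31294 CPM in E861A against 17660.4 to 22054 CPM in wild type. Of 12 endothelial genes, Esam, Ramp2, Pecam1 and Egfl7 rose and Stab2 fell, with sums of 625 to 892 CPM in E861A against 569 to 712 CPM in wild type. Of 12 mesenchymal genes edgeR called 0, with 0 at an unadjusted p under 0.05 and 0 in DESeq2 and limma-voom, but 4 were called higher without wild type 2 (5 at an unadjusted p under 0.05). Of 15 genes of dissociation and stress, 7 rose, and the median log2 fold change was 1.28. That count was 2 without wild type 17 and 3 without E861A 16, and 5 to 8 in the other alternative fits. Those that rose were Hspa1a (log2 fold change 4.54), Hspa1b (3.71), Atf3 (3.43), Egr1 (1.84), Junb (1.81), Ier2 (0.97) and Btg1 (0.80). The Atf3 and Egr1 calls held in all 13 alternative fits, and those of the others did not. Summed levels were 3925 to 4107 CPM in E861A against 2803 to 4050.2 CPM in wild type. Hspa8, not called, averaged 2765 CPM in E861A and 2982 CPM in wild type and made up most of these sums. Of the macrophage, lymphoid, hepatoblast and endothelial genes named here, Fcgr1 and Lck were called in all 13 alternative fits, and Krt18 and Stab2 in all but the 2 that take sex into account. The others were also lost on leaving out at least 1 library, most often E861A 16, wild type 15 or wild type 17. No listed marker was at 0 in every library, and the part of these lists in the members' results was not tested.

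The genes most like Parp14 in pattern, by Pearson's r of log2 CPM over the 6 libraries, were Isg15, Irf7, Sult6b1, Ifit1 and Dtx3l, with r between 0.9988 and 0.9998. Those most like Parp1 were Pacs1, Tbc1d24, Sf3a1, Synrg and Hcfc1, with r between 0.9975 and 0.9989. The 6 points fall into the 2 genotypes, so a high r mainly records a difference between them: of 13928 genes compared, 662 exceeded r = 0.95 with Parp14 and 552 with Parp1. Isg15, a ubiquitin-like modifier, averaged 1440.1 CPM in E861A and 3.86 CPM in wild type livers, and Hcfc1, a chromatin-bound cofactor, averaged 263 CPM in E861A and 562 CPM in wild type livers.

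The authors' table of editing sites held 6 sites in 3 members: 4 in the 3′ UTR of Dtx3l, 1 in an intron of Parp11 and 1 in an intron of Parp2. Those of Dtx3l and Parp11 are shown here in NCBIM37 in the direction of the transcript, with each adenosine listed as a site in capitals. They are shown because the Dtx3l sites lie within a short stretch of the only member with listed exonic sites. A capital does not mean that editing was seen in the livers of both genotypes. The windows are Dtx3l chr16:35926981-35927010 (minus strand), Dtx3l chr16:35926889-35926918 (minus strand) and Parp11 chr6:127422020-127422049 (plus strand).
Dtx3l, 3 sites: ctctccctAtgtagccaAggctAttcttga
Dtx3l, 1 site: aggatctgcttccacAgccttccaagtgca
Parp11, 1 site: gctgggctggtcttAaactcaaaatcctcc

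A minimum of 10 summed reads per genotype left 5 member sites, of which 1 was lower in E861A by Fisher's exact test on summed reads, where 16.7% of all 3883 tested sites were lower. This Dtx3l site, at position 35927002 of chromosome 16, is the first capital in its window. It was edited in 4 of 812 reads in E861A livers (0.493%, Wilson 95% interval 0.192% to 1.26%), against 3 of 27 reads in wild type livers (11.1%, interval 3.85% to 28.1%). The 4 edited reads of E861A all came from liver 19, while each wild type liver gave 1. The two-sided Fisher's exact test gave p = 0.000957, adjusted p = 0.00771 over all sites, and the call was lost without wild type 17. The test sums reads and does not include the spread between livers.

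The other sites had few edited reads. Over the 4 Dtx3l sites together, 7 of 4386 reads were edited in E861A (0.160%), against 4 of 151 in wild type (2.65%). The coverage behind the wild type level was much the lower. Of the 4 edited wild type reads, 3 came from position 35927002 and 1 from position 35926988. Position 35926903 had 0 edited of 53 reads in wild type and 1 of 1698 in E861A. Position 35926993 had 0 of 33 in wild type and 1 of 929 in E861A. The Parp2 site had 0 edited of 23 reads in E861A, which allows a level of up to 13.0%, against 4 of 20 reads in wild type (20%, Wilson 95% interval 8.07% to 41.6%). All 4 edited reads came from wild type 15, and the site did not pass (Fisher's exact test, adjusted p = 0.170). The Parp11 site was covered by 21 reads in E861A, with 0 edited, and by 3 reads in wild type, with 1 edited, and was not tested. The intervals and the level allowed by 0 reads cover counting error only.

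The start regions of the members were searched for elements through which interferon acts. RefSeq windows of 250 bases before to 50 bases after a start, in GRCm38.p6, were matched for 7 members. No window was found for the interferon-linked members Parp9, Parp10 and Parp14, so these were not searched. The interferon-stimulated response element was searched as GAAANNGAAA or TTTCNNTTTC, which covers both strands, and the gamma-activated site as TTCNNNGAA, which reads the same on both strands. Of all 32851 promoter windows, 3.44% held the first and 8.30% the second. Among the 7 members only Parp11 held either one: TTTCGATTTC at position -44 from the start of 1 of its 2 windows, and TTCTTGGAA at -37, which shares 3 bases with it. The windows of Dtx3l, Parp12, Parp1, Parp2, Parp3 and Parp8 held no match to these letters. Among the other PARP genes, the Parp4 window held 2 overlapping matches to the first motif and the Parp16 window 1 match to the second. A match is a description of the letters in the window and not a measured site.

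Windows are shown for 3 members that rose: Parp11 (chr6:127446590-127446889, plus strand), with both matches in capitals, Dtx3l (chr16:35938978-35939277, minus strand), whose start lies beside that of Parp9, and Parp3 (chr9:106476900-106477199, minus strand), the DNA repair member that rose. The last 2 have no capitals because they hold no match.
Parp11: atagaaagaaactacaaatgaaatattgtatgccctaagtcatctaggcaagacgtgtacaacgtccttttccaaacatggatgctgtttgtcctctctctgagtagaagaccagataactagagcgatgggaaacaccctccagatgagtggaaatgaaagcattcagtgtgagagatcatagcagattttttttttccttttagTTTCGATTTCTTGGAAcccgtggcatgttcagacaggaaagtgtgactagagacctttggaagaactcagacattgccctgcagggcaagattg
Dtx3l: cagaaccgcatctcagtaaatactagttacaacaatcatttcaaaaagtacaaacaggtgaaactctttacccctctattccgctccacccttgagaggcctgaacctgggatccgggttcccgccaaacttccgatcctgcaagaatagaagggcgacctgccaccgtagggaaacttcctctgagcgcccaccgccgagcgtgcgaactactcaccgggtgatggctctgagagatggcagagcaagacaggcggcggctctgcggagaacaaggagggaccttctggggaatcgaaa
Parp3: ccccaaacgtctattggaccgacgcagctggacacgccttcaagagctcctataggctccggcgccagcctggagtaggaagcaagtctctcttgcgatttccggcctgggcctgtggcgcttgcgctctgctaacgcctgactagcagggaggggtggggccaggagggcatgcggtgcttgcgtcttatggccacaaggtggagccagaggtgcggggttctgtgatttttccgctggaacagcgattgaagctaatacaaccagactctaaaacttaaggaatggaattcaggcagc

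The authors' deposited table of fold changes, with its sign turned to E861A over wild type, gave log2 values of 5.38 for Parp12, 4.97 for Parp14, 3.63 for Parp3, -0.03 for Parp2 and -0.73 for Parp1. In the authors' deposited table the adjusted p was 0.0392 for Parp1 and 0.0271 for Parp8. For all 10 members the values in the authors' deposited table lay within 0.10 of the edgeR estimates on the log2 scale.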

How the data were processed

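RNA of dispersed fetal livers was sequenced with standard Illumina libraries, per the labels' protocols. The authors deposited raw read counts per Ensembl gene. Per the file headers, the site table gives covering reads as counts and editing levels, each the fraction of these reads that was edited. The authors' deposited comparison gives log2 fold changes and p-values in wild type minus mutant direction, per the file headers. Per the submitters' processing notes, HTSeq, edgeR, limma, TopHat2 2.0.8, Cufflinks, BWA, Trimmomatic 0.30, Bowtie2 2.1.0.0 and SAMtools 0.1.19 were used, with mm9 and NCBIM37 and no roles given. Strandedness is not given in the sources used here. The normalised table was not used.

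Counts of the 6 libraries were fitted with edgeR 4.0.16 in R 4.3.3 (TMM, filterByExpr, robust quasi-likelihood F test, Benjamini-Hochberg over 16511 genes, threshold 0.05), tested on simulated data first. Between livers of a genotype, chi-square per degree of freedom was 40.6 to 125.4, far above counting error. Levels per length used GENCODE M1 exon unions. Edited reads were level times coverage, within 2.32e-06 of whole. Sites with at least 10 summed reads per genotype were compared by Fisher's exact test (Python 3.11.15, SciPy 1.17.1). Alternatives used DESeq2 1.42.0 and limma 3.58.1. Members, classes and gene lists were chosen with earlier results of these data known. All 10 members are named, with up to 4 called genes per pathway list of smallest p and those that small counts refer to; the 5 genes most like Parp14 and Parp1 are named by Pearson's r among genes averaging at least 1 CPM. One gene and 1 sequence window that these rules would name are not reported here.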

Additional observations from a re-analysis of the deposited data

How the results depend on the processing

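No paired analysis was possible because no liver number occurs in both genotypes and litters are not named. Across 13 alternative fits, 6 to 8 members were higher in E861A, beside 8 with all libraries. The count of members lower was 0 with sex as a covariate, 0 with male libraries alone, and 0 to 1 when 1 library was left out (0 without E861A 6, E861A 16, wild type 15 or wild type 17). Over all genes, 1283 were higher, but 530 with sex as a covariate, 301 with male libraries alone and 515 to 1737 when 1 library was left out. There were 703 lower, but 1538 with DESeq2, 1160 with the filter of 1 CPM in 3 libraries, 39 with sex as a covariate, 8 with male libraries alone and 95 to 1502 when 1 library was left out. The Parp2 log2 fold change turned positive with sex as a covariate (0.13), with male libraries alone (0.14) and without wild type 17 (0.012), never past the test, and ran from -0.141 to 0.012 when 1 library was left out. The Parp9 to Dtx3l log2 ratio differed by 0.27 to 0.51 when 1 library was left out and by 0.47 in male libraries alone. In none of these settings can the exact permutation test pass 0.05. With 1 library left out its smallest possible p is 0.1. The exact permutation test gave p = 0.1 without any 1 E861A library and p = 0.2 without any 1 wild type library. The count of member sites lower in E861A was 0 to 1 when 1 library was left out. With the longest transcript in place of the exon union, 10 of 20 ranks of the levels per length were kept. No alternative fit moved the median log2 fold change of all genes by more than 0.07. The cause of these changes was not tested. Coverage of Dtx3l in wild type limits its sites, which had a median of 35.5 wild type reads against 938 in E861A.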
